A study of Mus musculus with 6 samples.

Results

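Genes for calcium storage, release, uptake, buffering and calcineurin feedback were followed in mouse skeletal muscle after electrical pacing. The 8 genes, Casq1, Casq2, Ryr1, Atp2a1, Atp2a2, Pvalb, Rcan1 and Mef2c, were taken by name, through every probe annotated with exactly 1 of these symbols. All 8 had a value on all 6 arrays, among 3180 genes that did, and they rested on 42 probes. Total RNA was measured on 6 spotted arrays, 1 per group, in mice that carried an implanted pacer. Paced muscle was harvested 0, 1, 3, 8 and 24 hours after 3 hours of stimulation. Sham muscle came from operated mice whose pacer stayed inactive, and was harvested at the time that matched 0 hours, so a difference from sham at later times mixes pacing with elapsed time. Every array set its sample against a common reference, RNA of control muscle named Pre. The labels give no muscle, strain, age or sex, and no number of mice behind each RNA.

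In a muscle fibre the sarcoplasmic reticulum holds calcium bound to calsequestrin, releases it through the ryanodine receptor to start contraction, and takes it back through the SERCA pumps. Fast fibres also carry parvalbumin, a soluble buffer that speeds relaxation. Sustained calcium activates the phosphatase calcineurin, which acts through NFAT on the slow-fibre programme and through the MEF2 factors on muscle genes, and calcineurin raises transcription of its own regulator, Rcan1.

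Values below are log2 ratios to Pre, read as sample over Pre, which is likely but not settled because the dyes are not stated. With the opposite reading every sign would turn, ranks from the lowest would count from the highest, and shares below and above would swap. A log2 value of 1 is a 2-fold difference. A gene's value is the mean of its measured probes, and the spread beside it is the SD over those probes, not over animals. With 1 array per group no p-value could be computed. The arrays differed in spread, with a robust SD over all measured probes between 0.176 at 1 hour and 0.495 in sham. Of the 252 probe readings for the 8 genes, 16 were missing, and 31 of the 42 probes were measured on all 6 arrays. Ratios carry no absolute level, so the tissue could not be checked by marker abundance. On the paced arrays the markers of fast fibres (7 of 8 measured) had a median log2 difference from sham between -0.14 and 0.10, and those of slow fibres (7 of 7 measured) between -0.31 and 0.17. Of the smooth muscle markers 3 of 6 were measured, with log2 ratios in sham of 2.52 for Actg2, 0.54 for Acta2 and -0.59 for Cnn1. Their median difference from sham was between -1.04 and -0.63, and Cnn1 lay above sham at 1, 8 and 24 hours. In bulk muscle RNA, fewer cells of a type and less RNA per cell cannot be told apart.

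The 8 genes did not move as a block. Casq1, Pvalb and Mef2c lay below sham on all 5 paced arrays, a pattern held by 22.5% of all genes. Atp2a1, Atp2a2 and Rcan1 lay above sham on all 5, a pattern held by 29.6% of all genes. Casq2 and Ryr1 took both signs. Below Pre on all 6 arrays were Casq1, Casq2, Pvalb and Mef2c, as were 15.1% of all genes. In sham, however, Pvalb was level with Pre within its probe spread (-0.002 ± 0.33), and the 2 Casq2 probes took opposite signs.

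**Figure D1:**
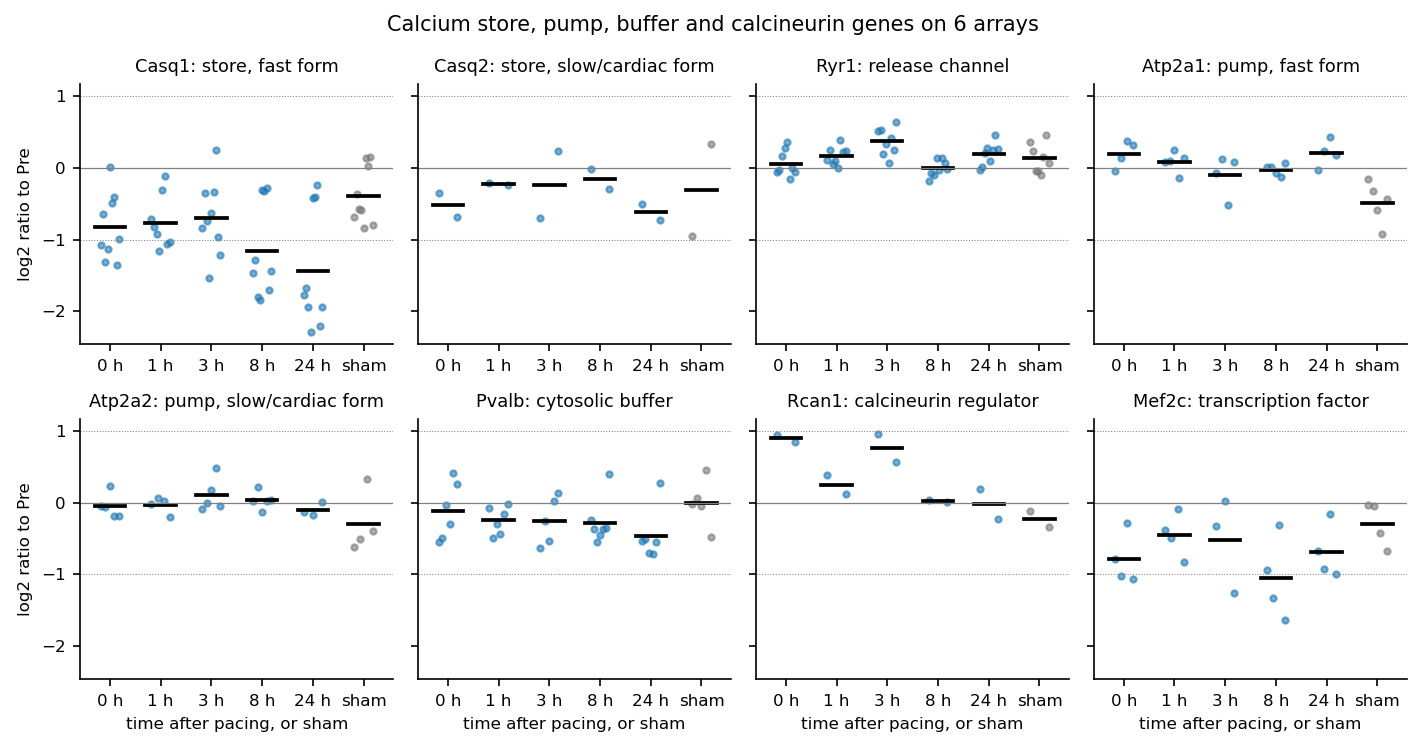
Log2 ratio to Pre (vertical axis) of the 8 genes on the 5 paced arrays, 0 hours to 24 hours after pacing, and on the sham array, with 1 dot per probe and a bar at the probe mean. Rcan1 was highest at 0 hours (0.90) and 3 hours (0.77), Casq1 was lowest at 24 hours (-1.43), and Ryr1 stayed between -0.01 and 0.37.

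At 0 hours, 1 of the 8 genes, Rcan1, was 2-fold from sham, where 5.97% of all genes were. None was at 1 hour, where 1.32% of all genes were, at 3 hours, where 2.14% were, or at 8 hours, where 3.24% were. At 24 hours, 1 of the 8 genes, Casq1, was 2-fold from sham, against 5.82% of all genes. Read against Pre, Casq1 and Mef2c were 2-fold lower at 8 hours (2 of 8, with 2.36% of all genes 2-fold from Pre in either direction), and Casq1 was at 24 hours (1 of 8, 5.41%). None of the 8 was 2-fold from Pre at 0 hours (2.17%), 1 hour (0.849%), 3 hours (4.97%) or in sham (3.33%).

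Casq1 encodes calsequestrin 1, the main calcium-binding protein inside the sarcoplasmic reticulum of fast fibres, and it was the lowest of the 8 genes after pacing. Its 9 probes (8 at 1 hour) averaged -0.82 ± 0.46 at 0 hours, -0.77 ± 0.37 at 1 hour, -0.70 ± 0.53 at 3 hours, -1.16 ± 0.67 at 8 hours and -1.43 ± 0.84 at 24 hours, against -0.39 ± 0.40 in sham (SD over probes). Every paced array was below sham, and the last 2 were the lowest. Casq1 stood at 0.37 of its Pre level at 24 hours, against 0.76 in sham. Of 3180 genes it was then the 16th lowest against Pre and the 73rd lowest against sham. The difference from sham was -1.04 ± 0.82 at 24 hours over 9 probes, with sham 2.06-fold higher, and -0.77 ± 0.68 at 8 hours. At 0 hours (-0.43 ± 0.62) and 3 hours (-0.31 ± 0.47) it was within the probe spread. At 1 hour it was -0.43 ± 0.37 over 8 shared probes. From 3 hours to 8 hours the shared probes differed by -0.46 ± 0.45, and from 8 hours to 24 hours by -0.27 ± 0.20, both slightly beyond their spread, while the arrays at 0, 1 and 3 hours did not differ beyond theirs.

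The 9 Casq1 probes did not read alike. At 24 hours, 6 of them lay between -2.29 and -1.68 and the other 3 between -0.42 and -0.23, with none in between. In sham the same 6 lay between -0.80 and 0.16. Probe 13100, with -2.21 at 24 hours against 0.16 in sham, had the widest difference, and probe 6498, with -0.42 at 24 hours against -0.83 in sham, ran the other way. At 24 hours, 8 of 9 probes were below sham and 6 were below it 2-fold. Leaving out 1 probe at a time gave -1.22 to -0.88, and 2 of the 9 values were then under 2-fold. The value against Pre at 24 hours ranged from -1.58 to -1.33 in the same way and stayed past 2-fold. With the arrays scaled to a common spread, Casq1 was past 2-fold below sham at 1 hour (-1.14) and 8 hours (-1.29) and no longer at 24 hours (-0.90). Calsequestrin probes are spotted cDNA, and binding of Casq2 transcripts by a Casq1 probe was not tested. At 24 hours the markers of fast fibres had a median difference from sham of 0.03, with 4 of 7 above sham (57.5% of all genes). They ran from -0.36 for Myl1 to 0.47 for Myh4, and the part of fast fibres in the Casq1 value was not tested. Of the smooth muscle markers at 24 hours, Actg2 was -2.76 and Acta2 -0.70 from sham while Cnn1 was level with it, and their part in the Casq1 value was not tested.

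**Figure D2:**
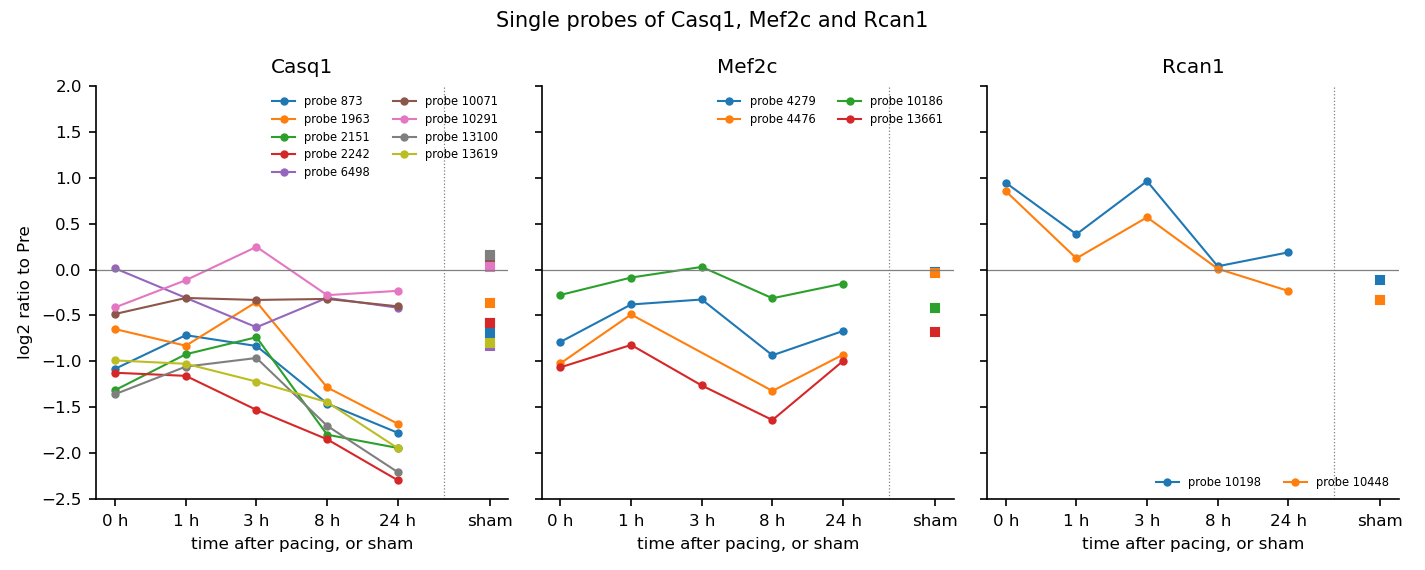
Log2 ratio to Pre (vertical axis) of each probe of Casq1, Mef2c and Rcan1, with a line per probe over hours after pacing and a square for the same probe on the sham array. A set of 6 Casq1 probes goes down together to between -2.29 and -1.68 at 24 hours while 3 stay between -0.42 and -0.23; both Rcan1 probes share the dip at 1 hour.

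Casq2 encodes calsequestrin 2, the cardiac and slow-fibre form. The mean of its 2 probes was -0.52 at 0 hours, -0.22 at 1 hour, -0.23 at 3 hours, -0.15 at 8 hours and -0.61 at 24 hours, against -0.31 in sham. That sham mean hides a disagreement: probe 338 read -0.95 and probe 8983 read 0.33. Probe 338 was therefore above sham, and probe 8983 below it, at all 5 times. Differences from sham, between -0.30 and 0.16, were all smaller than their probe SD (0.26 to 1.15), so no direction against sham can be given for Casq2. Within the paced arrays both probes were lower at 24 hours than at 8 hours, by -0.46 ± 0.05.

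Ryr1, the release channel of the sarcoplasmic reticulum, stayed near Pre throughout. All 8 probes were measured everywhere, and they averaged 0.06 ± 0.18 at 0 hours, 0.17 ± 0.13 at 1 hour, 0.37 ± 0.19 at 3 hours, -0.01 ± 0.11 at 8 hours and 0.19 ± 0.16 at 24 hours, against 0.14 ± 0.20 in sham. Its 6 values thus spanned 0.38 log2 units, where those of Casq1 spanned 1.04; over the paced arrays alone Atp2a2 (0.20), Atp2a1 (0.31) and Pvalb (0.35) spanned less than Ryr1. The 3-hour array was the highest: all 8 probes lay above Pre there, and 7 of 8 lay above sham, by a mean of 0.23 ± 0.22. With the arrays scaled to a common spread, the 1-hour array was the highest instead (0.31 against Pre, with 0.27 at 3 hours). From 3 hours to 8 hours all 8 probes were lower, by -0.38 ± 0.24, and from 8 hours to 24 hours all 8 were higher, by 0.20 ± 0.11. No Ryr1 probe mean reached 2-fold on any array.

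Atp2a1 encodes SERCA1, the pump of fast fibres, and it was higher on every paced array than in sham. Its 5 probes (4 at 0 hours, 3 hours and 24 hours) averaged 0.20 ± 0.19 at 0 hours, 0.09 ± 0.15 at 1 hour, -0.10 ± 0.29 at 3 hours, -0.02 ± 0.08 at 8 hours and 0.21 ± 0.19 at 24 hours, against -0.49 ± 0.29 in sham. The paced values lay near Pre, and sham was the array that stood apart, with all 5 probes below Pre. On the probes measured on both arrays the difference from sham was 0.70 ± 0.50 at 0 hours, 0.57 ± 0.25 at 1 hour, 0.47 ± 0.19 at 3 hours, 0.46 ± 0.23 at 8 hours and 0.58 ± 0.36 at 24 hours. Every shared probe was above sham at every time. Among the paced arrays alone Atp2a1 spanned 0.31. Probes 10081 and 10369, annotated with the same sequence record, differed by 0.14 to 0.60 on the 5 arrays that measured both, most in sham.

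Atp2a2 encodes SERCA2, the pump of slow fibres and, in another splice form, of most other cells. Its 5 probes (4 at 1 hour, 3 at 24 hours, 4 in sham) averaged -0.05 at 0 hours, -0.03 at 1 hour, 0.11 at 3 hours, 0.04 at 8 hours and -0.09 at 24 hours, against -0.30 in sham. Differences from sham were positive at all 5 times but passed the probe SD only at 3 hours (0.39 ± 0.18 over shared probes). Probe 13470 gave 0.34 in sham and ran against the others at all times but 3 hours. As SERCA1 and SERCA2 transcripts are similar, how far their cDNA spots bind each other was not tested.

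Pvalb, the parvalbumin gene, was below sham on all 5 paced arrays, by less than its probe spread. Its probes (7 on the array, 5 to 7 measured) averaged -0.11 ± 0.40 at 0 hours, -0.24 ± 0.20 at 1 hour, -0.25 ± 0.33 at 3 hours, -0.28 ± 0.31 at 8 hours and -0.46 ± 0.37 at 24 hours, against -0.00 ± 0.33 in sham. The largest difference over shared probes was -0.44 ± 0.69, at 24 hours. Probe 9217 ran against the others, with 0.40 at 8 hours against -0.48 in sham. Between 8 hours and 24 hours all 6 shared probes were lower at 24 hours, by -0.20 ± 0.07. That step was lost when arrays were scaled to a common spread, where Pvalb stood at -0.37 against Pre at both times. The largest scaled difference from sham was at 1 hour (-0.44).

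Rcan1, which binds calcineurin and restrains it, was highest at 0 and 3 hours, which did not differ beyond its probe spread. Probe 10198 read 0.95 at 0 hours, 0.39 at 1 hour, 0.96 at 3 hours, 0.04 at 8 hours and 0.19 at 24 hours, against -0.11 in sham. Probe 10448 read 0.86 at 0 hours, 0.12 at 1 hour, 0.57 at 3 hours, 0.01 at 8 hours and -0.23 at 24 hours, against -0.33 in sham. Both probes were above sham on every paced array, and both were high at 0 hours and 3 hours, lower at 1 hour and near Pre by 8 hours. Their mean difference from sham was 1.12 ± 0.09 at 0 hours (2.18-fold higher), 0.47 ± 0.03 at 1 hour, 0.99 ± 0.12 at 3 hours (1.98-fold higher), 0.24 ± 0.14 at 8 hours and 0.20 ± 0.14 at 24 hours. Against sham Rcan1 was the 65th highest gene at 0 hours and the 43rd highest at 3 hours, and its 3-hour value was just short of 2-fold. Against Pre it was the 65th highest at 0 hours and the 164th highest at 3 hours.

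The lower value at 1 hour was shared by both Rcan1 probes. From 0 hours to 1 hour they differed by -0.65 ± 0.12, from 1 hour to 3 hours by 0.51 ± 0.09 and from 3 hours to 8 hours by -0.74 ± 0.26, each beyond the probe spread. The 1-hour array had the narrowest spread of all 6, and once all arrays were scaled to a common spread Rcan1 was 1.13 above sham at 0 hours, 0.60 at 1 hour and 0.70 at 3 hours. After that scaling the 1-hour value was still below those at 0 hours and 3 hours, but close to the one at 3 hours. Each time point was a different array and sample, and 2 probes on 1 array do not replicate a time point.

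Rcan1 has 2 starts in the RefSeq table, and its short transcript, from the downstream one, is the form known to respond to calcineurin and NFAT. RefSeq promoter sequences (GRCm38.p6, 250 bases before to 50 after the start, both on the minus strand) are shown for both because the 2 starts differ in these letters. Capitals mark the NFAT core GGAAA on either strand (its reverse complement reads TTTCC) and the cAMP response element TGACGTCA, whose 2 strands read alike. The downstream start lies at chr16:92400029-92400328 and the upstream start at chr16:92466120-92466419.
Rcan1 downstream start: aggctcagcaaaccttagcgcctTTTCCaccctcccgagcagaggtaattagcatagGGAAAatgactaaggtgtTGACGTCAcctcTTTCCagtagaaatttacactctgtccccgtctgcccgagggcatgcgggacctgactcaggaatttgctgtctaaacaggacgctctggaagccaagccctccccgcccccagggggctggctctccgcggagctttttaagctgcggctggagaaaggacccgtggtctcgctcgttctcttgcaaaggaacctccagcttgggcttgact
Rcan1 upstream start: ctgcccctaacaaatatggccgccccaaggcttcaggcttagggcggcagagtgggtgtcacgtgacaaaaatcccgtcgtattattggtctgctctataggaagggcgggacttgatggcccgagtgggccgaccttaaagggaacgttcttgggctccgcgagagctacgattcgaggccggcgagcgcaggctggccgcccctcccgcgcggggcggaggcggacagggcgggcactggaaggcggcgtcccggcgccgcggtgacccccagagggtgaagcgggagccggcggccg
The downstream window held 3 GGAAA cores and 1 TGACGTCA, and the upstream window held neither. The GGAAA core was not particular to Rcan1. A Mef2c promoter held 5, and a promoter each of Casq2, Atp2a1 and Pvalb held 1. Among 32851 mouse promoters of 300 bases, 61.3% held GGAAA and 1.79% held TGACGTCA. These matches are descriptions of the windows, and the array probes were not assigned to either transcript.

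Mef2c encodes a transcription factor that calcium signalling releases from class II histone deacetylases. Its 4 probes (3 at 3 hours) averaged -0.79 ± 0.36 at 0 hours, -0.44 ± 0.30 at 1 hour, -0.52 ± 0.67 at 3 hours, -1.05 ± 0.57 at 8 hours and -0.69 ± 0.38 at 24 hours, against -0.29 ± 0.32 in sham. The paced arrays were all below sham, with 8 hours lowest, at 0.48 of the Pre level against 0.82 in sham. Without probe 13661 the 3-hour difference from sham was 0.02, the other sign. At 8 hours Mef2c was the 17th lowest gene against Pre and the 131st lowest against sham. Its difference from sham was then -0.76 ± 0.60. At the other times the difference from sham was within the probe spread or, at 0 hours, equal to it (-0.49 ± 0.49).

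One of the 4 Mef2c probes, 10186, was above sham at all 5 times, with values from -0.31 to 0.03 after pacing against -0.42 in sham. The other 3 read -1.64, -1.32 and -0.93 at 8 hours, and in sham the same probes, in this order, read -0.68, -0.04 and -0.03. Leaving out 1 probe gave -1.30 to -0.86 against Pre at 8 hours, with 2 of 4 values under 2-fold. Of the steps between neighbouring times, 3 were shared by all measured probes: 1 hour over 0 hours was 0.34 ± 0.16 (4 of 4 higher), 8 hours over 3 hours was -0.44 ± 0.14 (3 of 3 lower) and 24 hours over 8 hours was 0.37 ± 0.21 (4 of 4 higher). The step from 1 hour to 3 hours, -0.09 ± 0.31 over 3 probes, was not (2 higher, 1 lower). The early steps depended on the spread of the arrays. Scaled to a common spread, Mef2c stood at -0.86 at 0 hours, -0.81 at 1 hour and -0.38 at 3 hours against Pre. The step from 0 hours to 1 hour was then small, and the one from 1 hour to 3 hours was larger. The scaled values at 8 hours (-1.40) and 24 hours (-0.55) kept their order. Mef2c thus reached its lowest value at 8 hours and was higher again at 24 hours, while Casq1 was lower at 24 hours than at 8 hours. That contrast was lost when arrays were scaled to a common spread, where Casq1 stood at -1.54 at 8 hours and -1.15 at 24 hours against Pre.

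Promoters of the store and buffer genes are shown: Casq2 and Pvalb with a match to the MEF2 consensus, Casq1 with none. Atp2a2 had no promoter entry and was not searched. Capitals mark the MEF2 consensus in Casq2 and Pvalb and the E-box CANNTG, bound by MyoD-type factors, in Casq1. The Casq1 window is chr1:172219846-172220145 on the minus strand, that of Casq2 chr3:102086165-102086464 on the plus strand, and that of Pvalb chr15:78206351-78206650 on the minus strand (RefSeq, GRCm38.p6).
Casq1: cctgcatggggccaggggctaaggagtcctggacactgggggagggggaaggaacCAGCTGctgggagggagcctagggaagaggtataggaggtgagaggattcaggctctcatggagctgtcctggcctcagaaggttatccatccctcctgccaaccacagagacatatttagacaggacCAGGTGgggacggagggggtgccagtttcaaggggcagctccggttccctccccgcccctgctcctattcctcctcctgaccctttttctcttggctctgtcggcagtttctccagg
Casq2: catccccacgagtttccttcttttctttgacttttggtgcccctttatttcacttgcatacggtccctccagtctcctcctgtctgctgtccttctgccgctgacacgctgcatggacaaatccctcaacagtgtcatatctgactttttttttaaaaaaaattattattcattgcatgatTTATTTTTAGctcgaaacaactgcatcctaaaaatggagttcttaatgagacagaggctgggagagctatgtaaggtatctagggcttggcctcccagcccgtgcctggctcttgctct
Pvalb: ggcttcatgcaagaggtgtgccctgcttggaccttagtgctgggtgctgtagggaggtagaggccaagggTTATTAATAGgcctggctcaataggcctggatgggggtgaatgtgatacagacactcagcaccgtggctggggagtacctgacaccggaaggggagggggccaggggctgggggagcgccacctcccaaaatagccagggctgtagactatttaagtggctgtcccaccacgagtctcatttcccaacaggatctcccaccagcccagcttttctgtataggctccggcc
On both strands, the MEF2 consensus was found once in the Casq2 window and once in this Pvalb window. These were 2 of the 11 promoters at hand for 7 of the 8 genes, against 3.19% of all 32851 promoters with a match. The Casq1 window held no MEF2 match and 2 E-boxes, a motif in 72.3% of promoters. The Casq2 window also held 2 E-boxes, not marked here, and the Pvalb window shown held none. A second Pvalb promoter, those of Ryr1 and Atp2a1, the 3 of Mef2c and both of Rcan1 held no MEF2 match.

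**Figure D3:**
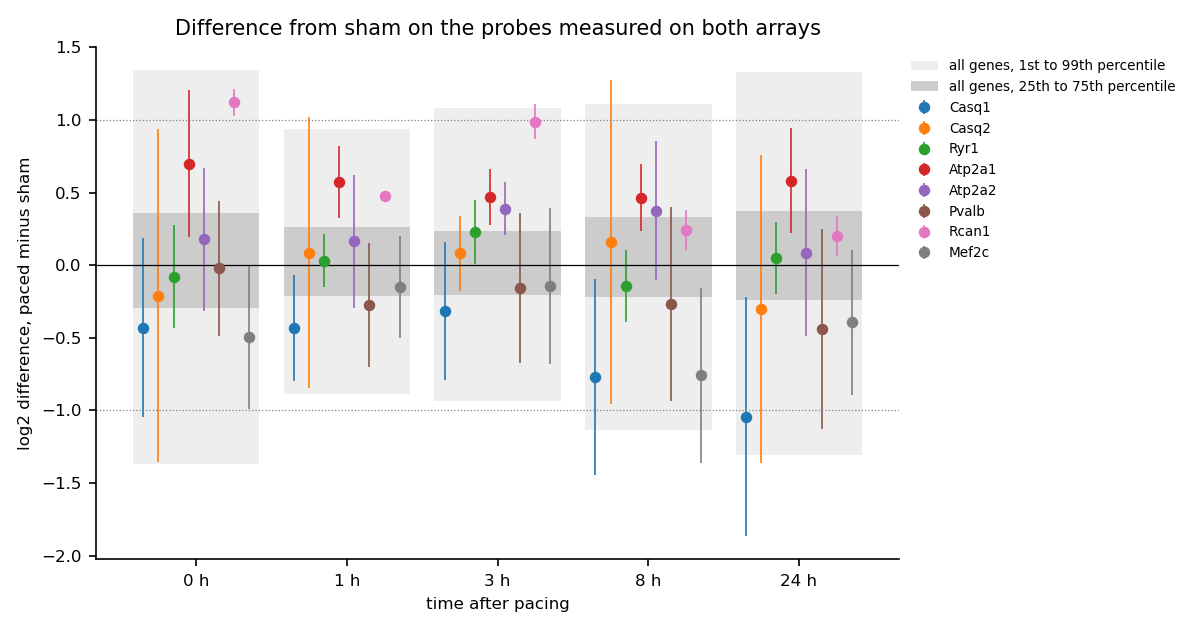
Log2 difference from sham (vertical axis) of the 8 genes at each time after pacing (horizontal axis, hours), as the mean over probes measured on both arrays with its probe SD as the bar, over bands that hold the 1st to 99th and 25th to 75th percentiles of all 3180 genes. Rcan1 at 0 hours (1.12) and Casq1 at 24 hours (-1.04) lie farthest from 0.

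Genes most like Casq1 and Rcan1, whose values spanned 1 log2 unit or more, were sought among 755 genes with 2 or more probes measured on all 6 arrays, by the root mean square difference of the 6 log2 ratios. Nearest to Casq1 were Ampd1, the muscle AMP deaminase (0.173), Camk2a, a calmodulin kinase subunit (0.212), and Sypl2, mitsugumin 29 of the triad junction (0.223). Ampd1 had the same order of 8 hours and 24 hours, with -1.08 at 8 hours and -1.54 at 24 hours, against -0.35 in sham. Camk2a had -1.53 at 8 hours and -1.44 at 24 hours, against -0.61 in sham. No gene came as near to Rcan1: the nearest were Wdr33 (0.271), Sar1a (0.294) and Psmd2 (0.299). Wdr33 had 0.40 at 0 hours and 0.54 at 3 hours, against -0.16 in sham, and its lowest paced value at 1 hour (0.14). The lowest paced value of Rcan1 was at 24 hours (-0.02). These are descriptions over 6 arrays that share the Pre RNA.

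Other calcium handling genes numbered 68 in the lists used, of which 25 were measured on all arrays. Their median difference from sham was 0.14 at 0 hours, 0.02 at 1 hour, 0.02 at 3 hours, -0.05 at 8 hours and 0.13 at 24 hours, where that of all genes was between 0.02 and 0.08. Past 2-fold from sham were 1 of 25 at 0 hours (5.97% of all genes), 1 at 1 hour (1.32%), 1 at 3 hours (2.14%), 0 at 8 hours (3.24%) and 3 at 24 hours (5.82%). The median at 8 hours had the opposite sign to that of all genes (0.06), and 12 of the 25 lay above sham there.

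**Figure D4:**
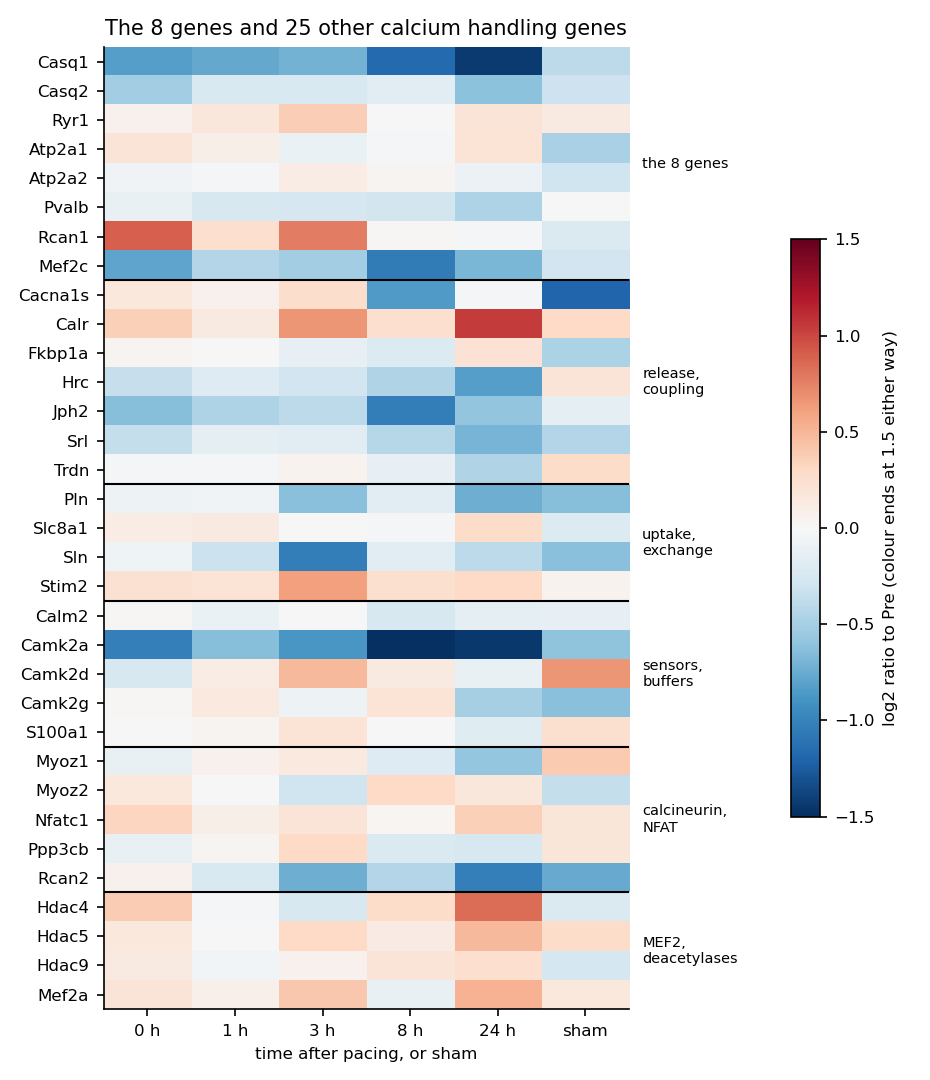
Log2 ratio to Pre (colour) of the 8 genes and the 25 other calcium handling genes (rows, grouped by role) on the 5 paced arrays and the sham array (columns). Casq1 (-1.16 and -1.43) and Camk2a (-1.53 and -1.44) are low at 8 hours and 24 hours, and Cacna1s is lowest in sham (-1.18).

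Among the release and coupling genes, 7 of 15 were measured. Hrc, a calcium-binding protein of the reticulum lumen, was below sham at all times, and at 24 hours by -1.01 over all measured probes, or -0.998 ± 0.48 over the 6 shared ones, just under 2-fold. Cacna1s, the voltage sensor that opens Ryr1, had 1 probe; it read 0.16 at 0 hours, 0.07 at 1 hour, 0.27 at 3 hours, -0.85 at 8 hours and -0.01 at 24 hours, against -1.18 in sham. Sham was its lowest array, and its differences from sham ran from 0.33 at 8 hours to 1.45 at 3 hours. Calr, calreticulin, had 1 probe, with 1.04 against Pre at 24 hours and 0.30 in sham, a difference from sham of 0.74. Jph2 is a junctophilin that ties the reticulum to the surface membrane. It averaged -1.03 against Pre at 8 hours over 3 probes that disagreed (-0.90 ± 1.26 from sham).

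In the uptake and exchange list 4 of 15 genes were measured, and all 4 lay above sham at 0 hours, 1 hour and 8 hours, and 3 of 4 at 3 hours and 24 hours. Of all genes, between 52.8% and 57.5% lay above sham at these times. Sham was the low array of this list, with a median of -0.42 against Pre. The paced medians against Pre lay between -0.31 and 0.04. On each paced array 1 or 2 of the 4 lay above Pre, as did 49.6% to 51.7% of all genes. Sln, sarcolipin, a small inhibitor of the SERCA pumps, was -1.04 against Pre at 3 hours on 1 probe, and -0.63 in sham. Slc8a1, the sodium-calcium exchanger, averaged 0.31 above sham over the 5 paced arrays and was not 2-fold from sham or Pre on any array. Of the sensors and buffers 5 of 11 were measured. Camk2a was -0.92 ± 0.19 from sham at 8 hours and -0.84 ± 0.33 at 24 hours over its probes, while Camk2d and Camk2g, on 1 probe each, averaged -0.58 and 0.58 from sham over the paced arrays; the family is close in sequence, and cross-binding was not tested.

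Of the other calcineurin and NFAT genes 5 of 13 were measured, and none was 2-fold from sham on any array. Rcan2, a relative of Rcan1, had no high value at 3 hours: on 2 probes (1 at 24 hours) it averaged 0.07 at 0 hours, -0.23 at 1 hour, -0.73 at 3 hours, -0.44 at 8 hours and -1.03 at 24 hours, against -0.75 in sham. Its difference from sham was 0.82 at 0 hours, 0.52 at 1 hour and 0.02 at 3 hours. Myoz1 and Myoz2, calsarcins that hold calcineurin at the Z-disc in fast and slow fibres, took opposite signs. Myoz1 differed from sham by -0.50 at 0 hours, -0.33 at 1 hour, -0.24 at 3 hours, -0.58 at 8 hours and -0.97 ± 0.22 at 24 hours over 11 probes. Myoz2 differed from sham by 0.52 at 0 hours, 0.34 at 1 hour, 0.05 at 3 hours, 0.66 at 8 hours and 0.53 at 24 hours over 4 probes, and passed its probe SD (0.48 to 0.71) at 8 hours alone.

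The other MEF2 and class II deacetylase genes (4 of 7 measured) did not share the low values of Mef2c. At 8 hours, where Mef2c was lowest, their median difference from sham was 0.15, with 2 of 4 above sham. At 24 hours all 4 were above both sham and Pre, with medians of 0.44 and 0.51, as were 57.5% of all genes for sham and 51.7% for Pre. Hdac4, a deacetylase that represses MEF2 factors, was 1.05 above sham at 24 hours on 2 probes that disagreed by more than that, and Hdac5 averaged -0.07 over the paced arrays. Of the mitochondrial calcium uptake genes none of 7 was measured on all arrays.

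The precision of any one probe was judged from pairs of probes annotated with the same sequence record, over the whole array. Their median absolute difference in log2 ratio was 0.44 at 0 hours (54 pairs), 0.18 at 1 hour (53 pairs), 0.59 at 3 hours (48 pairs), 0.33 at 8 hours (70 pairs) and 0.46 at 24 hours (43 pairs), against 0.62 in sham (56 pairs).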

How the data were processed

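The values deposited by the authors are log10 ratios, 1 for each of 13872 probes on each array. The authors' scanner, background correction, normalisation and dye assignment are not given in the sources used here, and the base was read from 52 cells that carry the rounding residue of a log10. Ratios were turned into log2. Exact zeros, values shared within a print block of 289 probes and empty cells were set to missing, and the median of the measured probes was subtracted from every array. Measured were 87.3% of probes at 0 hours, 90.9% at 1 hour, 87.9% at 3 hours, 95.2% at 8 hours and 87.7% at 24 hours, against 93.9% in sham. Genes were named from the platform annotation, with symbols updated by Entrez ID through the GRCm38.p6 table (6599 of 6609 probes with 1 symbol matched). The gene value is the mean over measured probes. Differences from sham subtract 2 arrays, and 2-fold means an absolute log2 value of 1 or more. The number of arrays limits precision, and no test was run.

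The 8 genes, the gene lists and the settings were chosen with earlier results of these data known. Named from the other lists were genes 2-fold from sham or Pre at any time or, where fewer than 2 were, also the highest and lowest by mean difference from sham; the 3 most alike genes were named for Casq1 and Rcan1. Marker lists covered fast and slow fibres, smooth muscle, blood, endothelium, fibroblasts, fat cells, leukocytes and Schwann cells. Alternatives kept zeros, skipped centring, took medians of probes, scaled arrays to a common spread, used probes measured on both arrays, asked for 2-fold from sham and Pre, or left out 1 probe. Python 3.11.15, numpy 2.4.6, pandas 2.3.3 and matplotlib 3.10.9 were used, and the steps were tested on simulated data.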

Additional observations from a re-analysis of the deposited data

How the results depend on the processing

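No paired analysis was possible because each group had 1 array. Taking the median of probes, skipping the centring, keeping zeros and shared values or using probes measured on both arrays moved none of the 8 genes' values beyond the probe SD. Scaling all arrays to a common spread mattered most. Against sham it gave Casq1 -1.14, Ryr1 0.22, Rcan1 0.60 and Mef2c -0.62 at 1 hour, and Rcan1 0.70 at 3 hours. Against Pre it gave Rcan1 0.99 at 0 hours and, at 1 hour, Casq1 -1.39, Casq2 -0.41, Ryr1 0.31, Pvalb -0.44, Rcan1 0.46 and Mef2c -0.81. After scaling, 1 of the 8 genes was 2-fold from sham at 1 hour (Casq1), 2 at 8 hours (Casq1 at -1.29 and Mef2c at -1.21) and 0 at 24 hours (Casq1 at -0.90), and Casq2 turned to -0.21 at 1 hour and to just below sham at 8 hours. Of all genes, 115 were then 2-fold from sham at 0 hours (190 unscaled), 66 at 1 hour (42), 16 at 3 hours (68) and 64 at 24 hours (185). From Pre there were 98 at 1 hour (27), 38 at 3 hours (158), 135 at 8 hours (75), 86 at 24 hours (172) and 21 in sham (106). The share of higher calls against Pre was then 77.6% at 1 hour, 86.8% at 3 hours and 85.7% in sham, against 88.9%, 57.0% and 54.7% unscaled. Keeping zeros and shared values, which tests 3899 genes instead of 3180, gave 77 from sham at 1 hour, 164 from Pre in sham and 51.0% higher calls from sham at 3 hours (61.8% before). Asking for 2-fold from both sham and Pre left 26 genes at 0 hours, 2 at 1 hour, 26 at 3 hours, 19 at 8 hours and 65 at 24 hours, with 0 of the 8 genes at 0 hours.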

Other observations

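Markers of other cells were measured thinly. Against sham, the fibroblast list (3 of 5 measured) had a median log2 difference of -0.37 at 0 hours, -0.32 at 1 hour, -0.43 at 3 hours, -0.65 at 8 hours and -0.58 at 24 hours, and the endothelial list (4 of 5 measured) lay between -0.01 and 0.26. Blood, fat cells and leukocytes had 1 gene each on all arrays, with differences from sham between -0.52 and 0.29, and Schwann cells had none. Their part in the values of the 8 genes was not tested.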
